A study of Mus musculus with 2 samples.

Results

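Myc and 9 genes of nucleolar growth, Npm1, Ncl, Nop56, Nop58, Fbl, Ran, Nolc1, Dkc1 and Nme1, were followed in sorted mouse brain cells as microglia returned after depletion. They were chosen by name, and all 10 were found among the 27998 genes of the count tables. The cells came from adult wild-type C57BL/6J mice, were sorted from whole brain as CD11b+/CD45+, and were profiled with 10x Genomics droplets, which count unique molecular identifiers (UMIs) per gene and cell barcode. The CD library holds the pooled cells of 4 mice kept on control diet for 19 days. The Repop D5 library holds the pooled cells of 6 mice given PLX5622, a CSF1R inhibitor that removes microglia, for 14 days and put back on control diet for the last 5 days. No barcode is tied to a mouse, so each group is 1 library and no test between the groups was possible. Within Repop D5, barcodes with and without a UMI of Mki67, a gene transcribed in cycling cells, were also set side by side.

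Myc encodes a transcription factor that pairs with Max on E-box DNA and is known for raising the transcription of genes for ribosome production and cell growth. Ribosomes are assembled in the nucleolus, where small nucleolar RNA-protein particles (snoRNPs) of the box C/D kind methylate ribosomal RNA and those of the box H/ACA kind convert uridine to pseudouridine. Nop56, Nop58 and the methyltransferase Fbl are core proteins of the C/D particles, Dkc1 is the pseudouridine synthase of the H/ACA particles, and Nolc1 is a scaffold protein that binds both kinds. Npm1 and Ncl are abundant nucleolar proteins of ribosome assembly, Ran is the GTPase that drives transport through nuclear pores and takes part in spindle assembly, and Nme1 is a nucleoside diphosphate kinase. Adult microglia divide rarely, whereas the cells that refill the brain after depletion divide often.

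The promoters of the genes with the largest and smallest differences between the libraries are shown because the Myc-Max pair recognises the letters CACGTG. RefSeq promoter windows, 250 bases before to 50 bases after a start site on GRCm38.p6, were found for 7 of the 10 genes, with a pair of overlapping windows for Nme1. No window was found for Myc, Npm1 or Fbl. The sequences run 5′ to 3′ on the strand of the gene, with CACGTG in capitals.
Ran promoter, chr5:129019906-129020205, plus strand: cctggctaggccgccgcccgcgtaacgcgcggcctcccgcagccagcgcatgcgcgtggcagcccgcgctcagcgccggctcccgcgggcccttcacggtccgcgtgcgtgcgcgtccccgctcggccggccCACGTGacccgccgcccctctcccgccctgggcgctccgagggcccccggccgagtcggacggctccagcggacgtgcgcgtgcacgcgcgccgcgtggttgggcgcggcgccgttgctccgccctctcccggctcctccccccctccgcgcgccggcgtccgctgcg
Nme1 promoter, chr11:93967976-93968275, minus strand: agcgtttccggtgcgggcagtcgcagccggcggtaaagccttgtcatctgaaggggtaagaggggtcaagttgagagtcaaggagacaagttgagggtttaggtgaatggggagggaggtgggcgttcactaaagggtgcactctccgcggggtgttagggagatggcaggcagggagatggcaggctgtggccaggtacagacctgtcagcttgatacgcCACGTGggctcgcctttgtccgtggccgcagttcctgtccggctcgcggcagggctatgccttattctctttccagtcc
Nme1 promoter, chr11:93968223-93968522, minus strand: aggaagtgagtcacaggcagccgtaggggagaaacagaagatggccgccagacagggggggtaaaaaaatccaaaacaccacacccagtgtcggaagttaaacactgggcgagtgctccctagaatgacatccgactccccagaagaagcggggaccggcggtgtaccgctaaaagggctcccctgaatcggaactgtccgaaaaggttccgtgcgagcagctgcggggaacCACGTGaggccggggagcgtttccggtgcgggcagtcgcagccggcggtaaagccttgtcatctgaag
Nop56 promoter, chr2:130274162-130274461, plus strand: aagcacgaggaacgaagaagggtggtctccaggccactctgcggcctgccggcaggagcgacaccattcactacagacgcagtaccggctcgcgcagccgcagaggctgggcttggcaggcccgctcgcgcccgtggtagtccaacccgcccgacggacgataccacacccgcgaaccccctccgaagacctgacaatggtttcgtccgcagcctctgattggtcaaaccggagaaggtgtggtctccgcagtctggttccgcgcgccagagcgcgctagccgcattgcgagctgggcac
Nolc1 promoter, chr19:46075597-46075896, plus strand: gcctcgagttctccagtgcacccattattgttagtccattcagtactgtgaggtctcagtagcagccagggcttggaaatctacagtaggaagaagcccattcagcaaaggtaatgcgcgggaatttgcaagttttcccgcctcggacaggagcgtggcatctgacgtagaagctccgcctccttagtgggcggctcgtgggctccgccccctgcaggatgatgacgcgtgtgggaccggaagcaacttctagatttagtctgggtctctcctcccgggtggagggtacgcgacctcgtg
CACGTG reads the same on both strands. It occurred once in the Ran window, with its first base at position -118 from the start site, and once in each Nme1 window, at positions -29 and -18 of their own start sites. It was not in the windows of Ncl, Nop56, Nop58, Nolc1 or Dkc1. Of 27025 genes with a window, 8.09% held it, and of the 6557 such genes measured in the comparison of the libraries, 12.7% did. The related letters CACGCG, searched on both strands and able to overlap a CACGTG match only in part, occurred 5 times in the Ran window and once in that of Nolc1, and were held by 9.27% of all 32851 windows and 21.0% of the measured genes. A match describes these letters only, and the windows without one include Ncl and Nop58, whose levels also differed between the libraries.

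On mm10 the genes lie on separate chromosomes or far apart. Myc spans chr15:61985391-61990374, Npm1 chr11:33152287-33163206, Ncl chr1:86344719-86359400, Nop56 chr2:130274430-130279313 and Nop58 chr1:59684971-59719044. Fbl spans chr7:28169710-28179269, Ran chr5:129020069-129024323, Nolc1 chr19:46075863-46085530, Dkc1 chrX:75095854-75109777 and Nme1 chr11:93956979-93968521. Npm1, Ncl and Nme1 are on the minus strand and the others on the plus strand. A feature that the choice by name did not use is that 4 of the 10 carry small nucleolar RNA genes inside them on the same strand, 5 in Nop56, 4 in Nop58, 3 in Ncl and 1 in Dkc1. Among 21554 protein-coding genes of the annotation, 277 (1.29%) do. Nop56 overlaps Idh3b and Dkc1 overlaps Mpp1 on the opposite strand, and Nme1 overlaps Gm20390 on its own strand. How the counting used strand is not given in the sources used here, so the counts of these 3 genes may hold reads of their neighbours, and the counts of genes with processed copies elsewhere, such as Npm1 and Ran, are uncertain in the same way.

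Retained barcodes had 500 genes or more and less than 10% mitochondrially encoded UMIs. These were 609 of 609 barcodes in CD, with 6055886 UMIs and a median of 5982 per barcode, and 553 of 585 in Repop D5, with 11037921 UMIs and a median of 16226. The microglia markers, 0 of 12 of which were at 0, summed to 32578 in CD against 13900 in Repop D5, in counts scaled to a common depth (CPM). Neutrophil markers summed to 13134 and 2102 CPM, border macrophage markers to 1390 and 254 CPM with Cd209f at 0 in Repop D5, monocyte markers to 289 and 291 CPM, and erythroid markers to 1642 and 2.72 CPM. Clusters named from these markers as border macrophage-like, monocyte-like or neutrophil-like were set aside in an alternative that keeps 430 CD and 502 Repop D5 barcodes, and key values are also given for those. The median mitochondrially encoded share, 2.00% in CD and 4.78% in Repop D5, moved with the group, as did depth and these markers. Their part in the differences below was tested only by leaving out those clusters, by matching depth and by a stricter filter. Leaving out those clusters did not remove the erythroid markers, which summed to 3091 CPM over the 430 CD barcodes kept. Among CD clusters these markers were highest in cluster 0, microglia-like and kept, with 8746 CPM over its 233 CD barcodes. That alternative therefore did not test the part of the erythroid markers.

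In Repop D5 the 10 genes together made up 2757 CPM, against 928 CPM in CD, a ratio of 2.97 (95% interval 2.89 to 3.06). The abundant genes weigh most in such a sum. Of its 30430 UMIs in Repop D5, Ran gave 8952, Npm1 8929 and Myc 343. Sums of the 10 genes in later paragraphs are weighted in the same way. Intervals here are exact binomial intervals of 2 counts and cover counting error only, not the spread between mice. With a ratio of 1.5 or its inverse as the bound, among genes with at least 10 CPM in 1 library, 8 of the 10 were higher in Repop D5 and 0 were lower. Of all 8463 genes measured, 16.8% were higher and 42.1% were lower. The median log2 ratio was 1.08 for the 10 genes and -0.38 for all measured genes. Ran, Nme1 and Npm1 had the largest ratios, followed by Ncl, Nop58, Dkc1, Myc and Fbl, and Nop56 and Nolc1 were the 2 that stayed inside the bound. Without the clusters of other cell types 7 of the 10 were higher and 0 lower. There 17.6% of measured genes were higher and 40.6% lower. Every gene had a ratio above 1 under each of 12 other ways of processing, and scaling by a trimmed mean of log ratios, which moves the median of all measured genes to 0.01, put all 10 past the bound. With that scaling 28.2% of measured genes were higher and 24.0% lower, and with totals that leave out mitochondrially encoded and ribosomal protein genes 23.6% were higher and 29.7% lower.

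**Figure D1:**
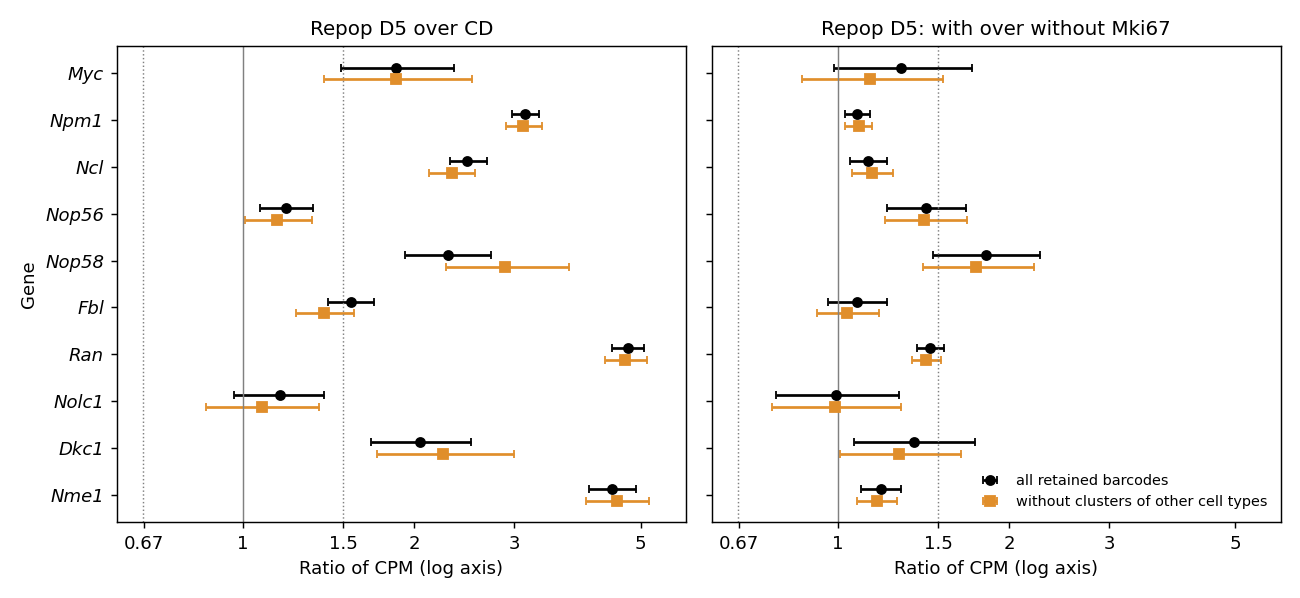
Ratio of CPM on a log axis for each gene, Repop D5 over CD on the left and Repop D5 barcodes with over without a Mki67 UMI on the right. Black points are all retained barcodes, orange squares leave out the clusters of other cell types, bars are 95% counting intervals and dotted lines mark 1.5 and its inverse. On the left 8 black points and 7 orange squares lie past 1.5, and on the right Nop58 alone does in both.

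Myc was sparsely counted. It gave 101 UMIs in CD, 16.7 CPM (13.6 to 20.3), and 343 UMIs in Repop D5, 31.1 CPM (27.9 to 34.5). The 2 intervals did not overlap, and the ratio was 1.86 (1.49 to 2.35). That ratio stood at the 88.8 percentile of all measured genes. Leaving out the clusters of other cell types left it at 1.86. The ratio is uncertain where depth was evened out, at 1.14 (0.709 to 1.84) when each barcode was thinned once to 3000 UMIs, which ends the call, 1.53 when 20 such draws were summed, and 1.74 (1.02 to 3.08) among barcodes with 8000 to 16000 UMIs. The last of these matched depth but not the make-up by cell type.

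The 2 general ribosome assembly proteins were both well above the bound. Npm1, a nucleolar chaperone of ribosomal particles, stood at 258 CPM in CD against 809 CPM in Repop D5, a ratio of 3.13 (2.97 to 3.31). Ncl, which binds ribosomal RNA precursors and their genes, stood at 143 and 355 CPM, a ratio of 2.48 (2.31 to 2.68). Both stayed past 1.5 under each alternative, with lowest ratios of 2.88 for Npm1 and 2.13 for Ncl.

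The snoRNP proteins divided. Within the box C/D core, Nop58 went from 27.7 CPM in CD to 63.5 CPM after depletion, a ratio of 2.29 (1.93 to 2.73). Its partner Nop56 went from 82.2 to 98.1 CPM, a ratio of 1.19 (1.07 to 1.33), so the intervals of these 2 ratios did not meet. Fbl lay between them, at 98.3 and 152 CPM with a ratio of 1.55 (1.41 to 1.70). The Fbl call ends without the clusters of other cell types, at 1.39 (1.24 to 1.57), whereas Nop58 was then at 2.89 (2.27 to 3.74). Dkc1 of the H/ACA core was at 20.6 and 42.3 CPM, a ratio of 2.05 (1.68 to 2.52). Nolc1, the scaffold, stood at 29.2 CPM in CD against 33.8 CPM in Repop D5, and its ratio of 1.16 had an interval of 0.964 to 1.39 that spans 1.

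Ran and Nme1 showed the largest ratios of the group. Ran was at 171 CPM in CD against 811 CPM in Repop D5, a ratio of 4.75 (4.45 to 5.07). Nme1 was at 81.1 and 361 CPM, a ratio of 4.46 (4.06 to 4.91). Their intervals overlap, and both lie above that of Npm1. Among barcodes with 8000 to 16000 UMIs in both libraries, 116 in CD and 205 in Repop D5 with medians of 11350 and 11984, Ran was at 3.83 (3.33 to 4.42) and Nme1 at 3.82 (3.12 to 4.73). The 10 genes together stood at 901 and 2403 CPM in those barcodes, a ratio of 2.67. Of those barcodes, 71 in CD and 191 in Repop D5 lay outside the clusters of other cell types. Depth was thus matched in them, but the make-up by cell type was not.

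**Figure D2:**
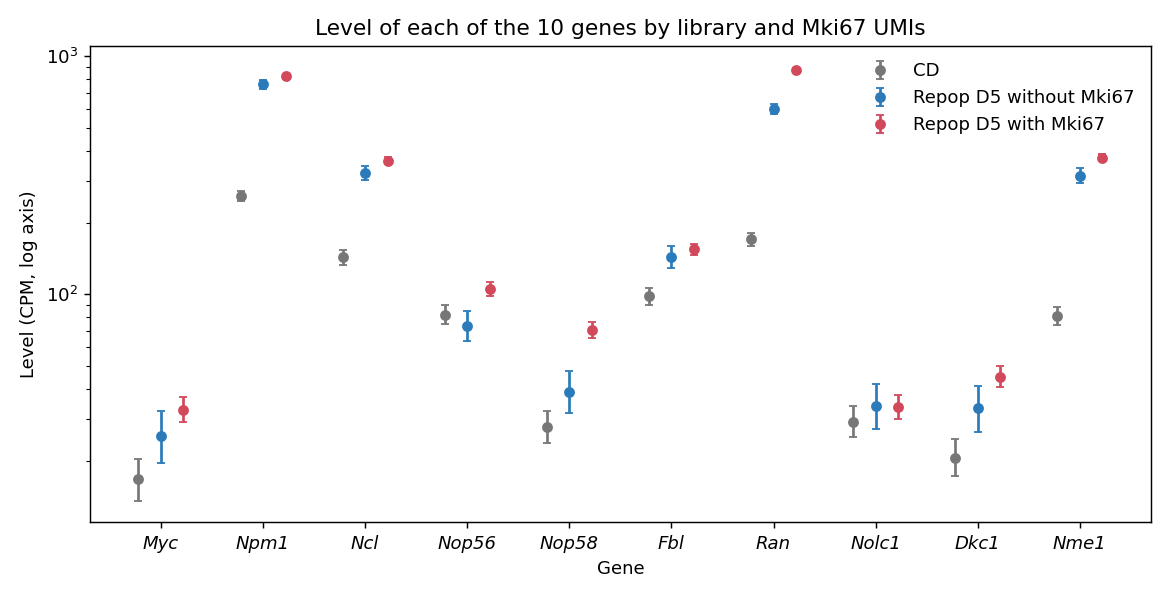
Level of each gene in CPM on a log axis, in CD, in Repop D5 barcodes without a Mki67 UMI and in those with one, with 95% counting intervals. Ran is at 171, 601 and 874 CPM in these 3 groups and Nop56 at 82.2, 73.8 and 105 CPM.

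The shift was spread over the barcodes rather than carried by a few. Per 10000 UMIs of a barcode, the 10 genes gave 0 at the lowest, a median of 9.14 and 27.7 at the highest in CD. In Repop D5 the lowest was 2.88, the median 25.3 and the highest 74.2. The ranges overlap, with 211 of 553 Repop D5 barcodes above the highest CD barcode and 9 (1.63%) at or below the CD median. After thinning to 3000 UMIs, which left out 10 CD barcodes, the median was 3.00 UMIs in 599 CD barcodes and 7.00 in Repop D5. In UMIs rather than shares of them, a CD barcode held 9.23 UMIs of the 10 genes on average and a Repop D5 barcode 55.0, since the latter also held more UMIs in all.

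**Figure D3:**
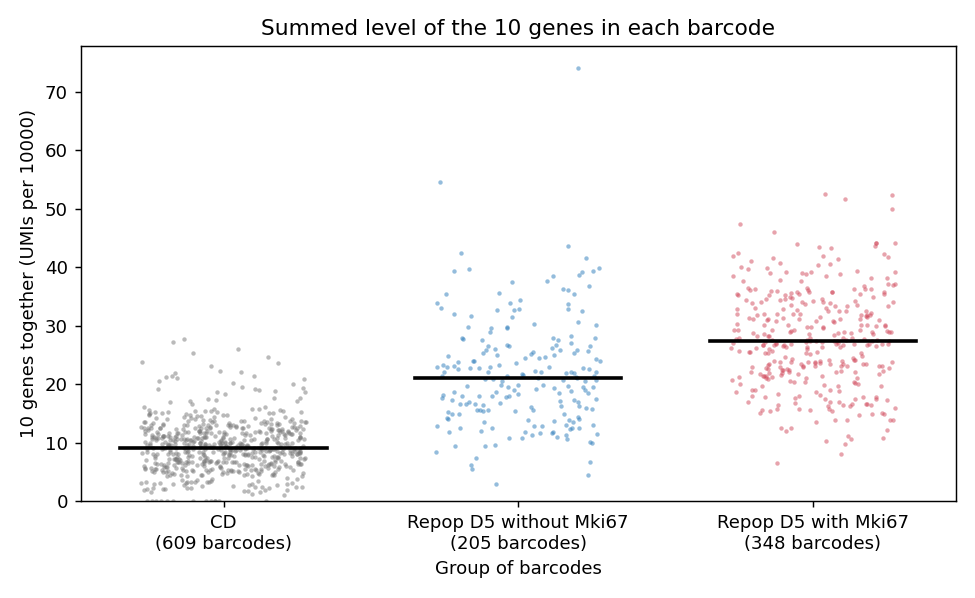
UMIs of the 10 genes per 10000 UMIs of each retained barcode, 1 point per barcode, with a line at the median of each group. The medians are 9.14 in CD, 21.1 in Repop D5 without a Mki67 UMI and 27.4 with one.

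Shares of barcodes with a UMI, after thinning, followed the levels for most of the genes. Ran was found in 39.4% of CD and 83.5% of Repop D5 barcodes (67.8% and 98.0% before thinning), Npm1 in 53.4% and 87.5%, and Nme1 in 20.2% and 60.0%. Nop56 was found in 21.9% of barcodes in each library after thinning. Myc was found in 5.01% of CD barcodes (3.40 to 7.07, exact Clopper-Pearson) and 7.96% of Repop D5 barcodes (5.84 to 10.5), intervals that overlap, and in 13.8% and 32.7% before thinning. Free RNA in droplets can give such UMIs, and its level was not measured here. Neutrophils served as a reference type, although they may transcribe some of these genes themselves. In the 41 CD neutrophil-like barcodes deep enough to thin, from a cluster with a median depth of 6386 UMIs, the shares were 24.4% for Ran, 12.2% for Nme1 and 2.44% for Myc, on 1 barcode (0.0617 to 12.9). In the 7 neutrophil-like barcodes of Repop D5 they were 42.9%, 28.6% and 0%, where 0 of 7 allows a share of up to 42.9%. The Myc share in CD is therefore not distinguishable from that level at this depth, and neither is the Myc share in Repop D5.

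In the 205 Repop D5 barcodes without a Mki67 UMI, most of the 10 genes were also above CD. Together they stood at 2348 CPM, a ratio to CD of 2.53 (2.44 to 2.63). Of the 10, 6 were higher and 0 lower, where 13.8% of 8355 measured genes were higher and 43.7% lower. Nme1 led with 315 CPM and a ratio of 3.89 (3.47 to 4.36), followed by Ran at 601 CPM and 3.52 (3.25 to 3.81), Npm1 at 761 CPM and 2.95 (2.76 to 3.15), and Ncl at 322 CPM and 2.26 (2.05 to 2.48). Dkc1 at 33.2 CPM and 1.61 (1.21 to 2.13) and Myc at 25.4 CPM and 1.52 (1.10 to 2.10) were just past the bound. Fbl at 1.46 (1.28 to 1.66) and Nop58 at 1.41 (1.09 to 1.81) were just inside it. Nop56 was at 73.8 CPM, a ratio of 0.897 with an interval of 0.755 to 1.06 that spans 1, and Nolc1 at 1.16 (0.889 to 1.51) likewise. No Mki67 UMI is not the same as no division, because after thinning to 3000 UMIs 23.3% of Repop D5 barcodes showed Mki67 in place of 62.9%, and the G2 and M phase list summed to 1074 CPM in these barcodes against 239 CPM in CD.

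These 205 barcodes held 24 monocyte-like and 6 neutrophil-like barcodes, against 20 and 1 among the 348 with Mki67. Neutrophil markers summed to 5454 CPM without Mki67 and 1089 CPM with it, and endothelial markers to 114 and 14.9 CPM. Leaving out the clusters of other cell types gave 7 of 10 higher than CD in the barcodes without Mki67, where 14.8% of measured genes were higher and 42.6% lower. Myc was then at 1.67 (1.15 to 2.45), Nop58 at 1.82 (1.32 to 2.51) and Nop56 at 0.865 (0.711 to 1.05). The 10 genes together were at 2.49.

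Within Repop D5, barcodes with a Mki67 UMI held slightly more of the 10 genes than those without, 2880 against 2348 CPM, a ratio of 1.23 (1.19 to 1.26). Against CD, the barcodes with Mki67 had 8 of 10 genes higher, where 17.7% of measured genes were, with Ran at 5.12 and Nme1 at 4.63. Against those without Mki67, Nop58 alone passed the bound, from 39.0 CPM on 100 UMIs to 70.9 CPM on 601 UMIs, a ratio of 1.82 (1.47 to 2.27). Of 7481 measured genes 7.23% were higher and 2.75% lower, so 1 of 10 is near that background. Without the clusters of other cell types Nop58 was again the 1 gene past the bound, at 1.75, where 7.66% of measured genes were higher and 2.45% lower. Ran at 1.45 (1.38 to 1.54), Nop56 at 1.43 (1.22 to 1.68) and Dkc1 at 1.36 (1.07 to 1.74) lay above 1 but inside the bound. Nme1 at 1.19 (1.10 to 1.29), Ncl at 1.13 (1.05 to 1.22) and Npm1 at 1.08 (1.03 to 1.14) differed little between barcodes with and without Mki67. The intervals of Myc at 1.29 (0.983 to 1.72), Fbl at 1.08 (0.961 to 1.22) and Nolc1 at 0.993 (0.779 to 1.28) span 1. The order of the genes thus differed from that between the libraries, with Nop58 and Nop56 near the top and Npm1 near the bottom.

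Depth differs between these 2 sets by construction, since a deeper barcode is more likely to show a Mki67 UMI, with medians of 21746 and 10828 UMIs. The level of the 10 genes also moved with depth. In 3 depth bins of near equal size, divided at 12675 and 21997 UMIs, barcodes without Mki67 held 2056, 2401 and 2773 CPM from shallow to deep, and those with Mki67 held 2478, 2666 and 3001 CPM. The ratio within a bin was 1.21, 1.11 and 1.08. From shallow to deep, 3, 2 and 0 of the 10 genes were higher and 0 lower, where 15.6%, 11.2% and 13.6% of measured genes were higher and 11.9%, 6.05% and 7.47% lower. Nop58 was at 2.14, 1.82 and 1.27, so its call ends in the deepest bin, where 19 barcodes lack Mki67. Ran kept ratios of 1.28, 1.40 and 1.28, and Npm1 stood at 1.08, 0.911 and 1.02. Myc was at 1.85 (1.02 to 3.38) and 2.01 (1.19 to 3.57) in the shallower bins, on 23 and 18 UMIs without Mki67, and at 0.712 (0.464 to 1.14) in the deepest, on 24. With 1, 2 to 3 and 4 or more Mki67 UMIs, Ran stood at 730, 872 and 947 CPM and the 10 genes together at 2612, 2907 and 3002 CPM. Myc stood at 36.0, 37.4 and 29.3 CPM over the same steps, which did not rise with Mki67.

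Across clusters of the 2 libraries the 10 genes together were higher in each Repop D5 group of 36 or more barcodes than in any CD group of 29 or more. Apart from the monocyte-like cluster and the neutrophil-like one, with 42 CD and 7 Repop D5 barcodes, these clusters hold nearly all their barcodes from 1 library, so a cluster may be a library as much as a type of cell. The highest was cluster 3, led by Nusap1, Cenpf and Ccnb1, genes of mitosis, at 3044 CPM, and next came cluster 5, led by Rrm2, Uhrf1 and Mcm6, genes of DNA replication, at 2904 CPM. Cluster 2, led by Fam19a1, Ch25h, Ass1 and Nes, was at 2793 CPM, and cluster 10, led by Dusp2, Tnf and Cxcl10, at 2767 CPM. The monocyte-like cluster held 1117 CPM in 29 CD barcodes and 2404 CPM in 44 Repop D5 barcodes. The CD clusters lay between 720 CPM in the neutrophil-like and that 1117 CPM.

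The lowest Repop D5 cluster was cluster 7, of 68 barcodes with a median of 9584 UMIs, led by Hacd4, Ramp1 and Mxd4, at 1707 CPM (1611 to 1806). Its genes did not sit at 1 common level relative to the rest. Npm1, at 721 CPM (659 to 786), was near the 788 CPM of cluster 2 and above each CD group. Nop56, at 32.8 CPM (20.8 to 49.2), was lower than in the large CD clusters 0 and 1, at 93.2 CPM (76.1 to 113) and 87.6 CPM (74.0 to 103). Nop58, at 12.8 CPM (5.87 to 24.4), lay below the 21.7 CPM (13.9 to 32.3) and 26.4 CPM (19.2 to 35.4) of the same CD clusters, with intervals that overlap. Ran was at 367 CPM (323 to 414), above the 177 CPM of CD clusters 0 and 1 and below the 994 CPM of cluster 3. Nme1 was at 170 CPM, against 397 CPM in cluster 2 and 82.8 CPM in cluster 1. Myc ran from 41.3 CPM (33.5 to 50.5) in cluster 2 down to 17.1 CPM (8.85 to 29.9) in cluster 7 within Repop D5, and from 20.8 to 13.4 CPM in CD. The intervals of cluster 2 and of the mitotic cluster 3, at 29.8 CPM (23.9 to 36.7), overlap, so Myc was not shown to be lower in mitotic barcodes.

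**Figure D4:**
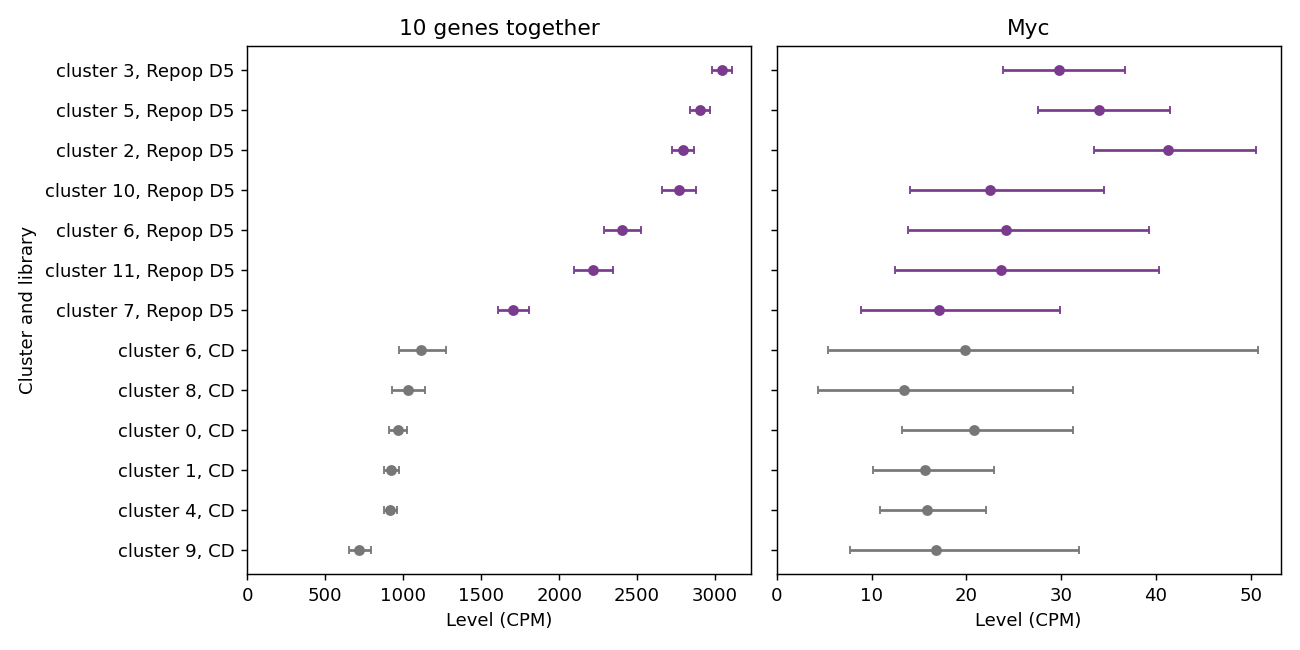
Level in CPM of the 10 genes together (left) and of Myc (right) in each cluster and library with its 95% counting interval; cluster 4 is border macrophage-like, 6 monocyte-like and 9 neutrophil-like. For the 10 genes together the Repop D5 clusters lie from 1707 to 3044 CPM and the CD clusters from 720 to 1117 CPM; the intervals of Myc are wide and many overlap.

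The wider pathway was taken from lists of genes with the same roles. Several of these lists include some of the 10 genes, so their counts partly repeat the result above. Nme2 is in both the NME list and the list of other Myc targets, and Mcm7 is in both the latter and the S phase list. The lists were written with earlier results of these data known, so their counts are not independent support. Whether Myc had a part in the levels of its known targets was not tested. Of 14 measured genes of the Myc network, the partners and rivals of Myc, 10 were lower in Repop D5 than in CD and Myc itself was the 1 that was higher. Of all measured genes 42.1% were lower. The median log2 ratio was -0.80, beside -0.38 for all genes. Max, the shared partner, stood at 70.5 CPM in CD against 40.8 CPM in Repop D5, a ratio of 0.578. Mxd1, a repressor that competes for Max, stood at 32.2 and 7.25 CPM (0.225), Mnt, another, at 19.2 and 7.79 CPM (0.407), and Mycl, a relative of Myc, at 14.5 and 1.63 CPM (0.112). Under trimmed-mean scaling 2 of 15 were higher and 5 lower, where 24.0% of all genes were lower, so much of the count rests on the scaling, and Max at 0.760 was then inside the bound. Mxd3, a member of the Mxd family singled out after its values were seen, was at 0 UMIs in CD and 106 UMIs in Repop D5, 9.60 CPM, which is at least 19.4-fold higher when CD is set to a floor of 3 counts over the library. Among Repop D5 barcodes Mxd3 was higher with Mki67 by a ratio of 2.90, while Mxd4 stood at 73.0 CPM without and 46.4 CPM with Mki67 (0.635).

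Myc is often grouped with the immediate early genes, which respond within minutes to stimuli that include tissue dissociation. All 17 measured immediate early genes were lower in Repop D5, at a median log2 ratio of -2.04, Jun going from 1835 to 236 CPM and Junb from 1213 to 368 CPM. Of all measured genes 42.1% were lower, at a median of -0.38. Under trimmed-mean scaling 15 of the 17 were lower, where 2081 of 8659 measured genes were. Without the clusters of other cell types 14 of 16 were lower, where 40.6% of measured genes were. Myc went the other way, at a ratio of 1.86 (1.49 to 2.35). That ratio fell to 1.14, with an interval that includes no difference, when each barcode was thinned once to 3000 UMIs. The part of dissociation was not tested. CD cluster 8, led by Gem, Socs3, Egr1 and Jun, held Myc at 13.4 CPM (4.34 to 31.2), the lowest of the CD clusters, with an interval that covers the values of the others.

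Among 17 measured snoRNP genes, 8 were higher and 1 lower, where 16.8% of all measured genes were higher and 42.1% lower, and the median log2 ratio was 0.52. Without the clusters of other cell types 6 were higher and 0 lower, where 17.6% of measured genes were higher and 40.6% lower. All 4 core proteins of the H/ACA particle were past the bound, with Nhp2 at 46.6 and 137 CPM (2.95), Nop10 at 137 and 300 CPM (2.19) and Gar1 at 26.6 and 46.2 CPM (1.74) beside Dkc1. Of the C/D core, Nhp2l1 was at 111 and 190 CPM (1.71) beside Nop58 and Fbl, and Nop56 was the 1 of 4 inside the bound. Naf1, an H/ACA assembly factor, was the 1 lower gene, at 11.4 and 7.52 CPM (0.660). Of 55 measured ribosome assembly factors 13 were higher and 2 lower, with a median of 0.28, led by Npm1, Npm3 (37.0 and 102 CPM, 2.77) and Bop1 (2.44), against Heatr1 at 0.575. RNA polymerase I genes were divided, 3 of 16 higher and 3 lower with a median of -0.05. Polr1d stood at 143 and 279 CPM (1.95) and Ubtf, a factor that opens ribosomal genes, at 59.3 and 39.0 CPM (0.659). Under trimmed-mean scaling 14 of 17 snoRNP, 30 of 57 assembly and 7 of 17 polymerase I genes were higher and 0 lower. Of 8659 measured genes 2439 were then higher and 2081 lower. The polymerase I median was 0.35 with that scaling, so these list counts and the sign of that median rest on the scaling.

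Of the genes that load, unload and use Ran, 11 of 28 were higher and 5 lower, with a median of 0.34. Of all measured genes 16.8% were higher and 42.1% lower. Under trimmed-mean scaling 16 of the 28 were higher and 2 lower, with a median of 0.72, where 2439 of 8659 measured genes were higher and 2081 lower. The regulators of its GTP cycle were among the higher, with Ranbp1 at 130 and 429 CPM (3.30), the exchange factor Rcc1 at 7.60 and 20.4 CPM (2.68) and the GTPase activator Rangap1 at 26.4 and 67.1 CPM (2.54). The exportin Xpo1 was at 23.6 and 57.8 CPM (2.45), whereas the importin Tnpo3 was at 118 and 49.5 CPM (0.419) and the pore protein Nup88 at 51.0 and 25.7 CPM (0.504). Of 4 measured NME genes 3 were higher and 1 lower, with Nme2 at 22.6 and 77.3 CPM (3.42) beside Nme1, and Nme3 at 13.2 and 4.35 CPM (0.329). Nme1 and Nme2 are close copies of each other, so reads may have been split between them. Of 42 other genes known as Myc targets 36 were higher and 1 lower, with a median of 1.08, beside the same 16.8% and 42.1% of all measured genes. They included Ptma at 838 and 2102 CPM (2.51) and Eif4a1 at 439 and 801 CPM (1.82), against the cyclin Ccnd2 at 20.6 and 6.52 CPM (0.316). In Repop D5 barcodes without Mki67, where 13.8% of measured genes were higher than in CD and 43.7% lower, 35 of these 42 were higher and 1 lower. The other lists had fewer higher genes there, with 3 of 17 snoRNP genes higher and 2 lower, 9 of 56 assembly factors higher and 4 lower, and 5 of 27 Ran genes higher and 6 lower.

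**Figure D5:**
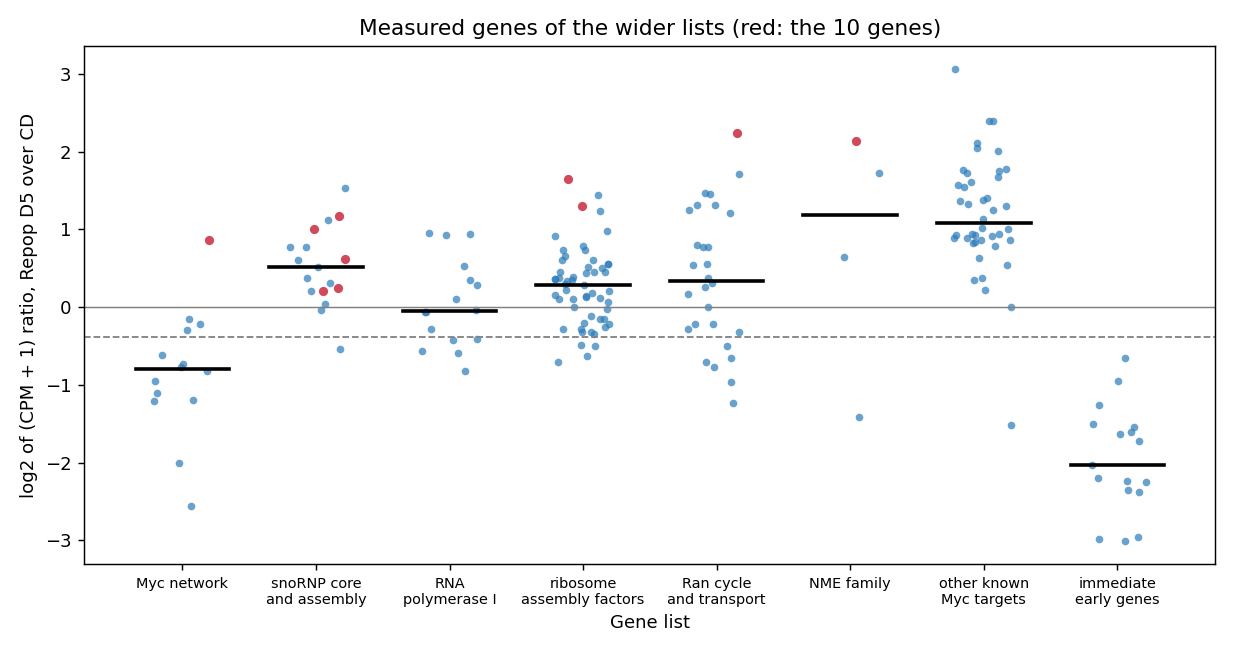
Each dot is 1 measured gene of a list, placed by the log2 ratio of (CPM + 1) in Repop D5 over CD, with the 10 genes in red, a bar at the list median and a dashed line at -0.38, the median of all measured genes. The immediate early genes and most of the Myc network lie below the dashed line, and the other Myc targets lie mostly above 0.

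Between Repop D5 barcodes with and without Mki67 most of the same lists had few genes past the bound, where 7.23% of all measured genes were higher and 2.75% lower. Of 41 other Myc targets 4 were higher and 0 lower, of 53 assembly factors 2 were higher, led by Nol11 at 1.78, and of 16 snoRNP genes 3 were higher, the list median being 0.40 on the log2 scale. Of the Ran list 8 of 28 were higher, with a median of 0.34, among them Nup107 (2.67), Kpna2 (2.37), Rcc1 (2.31) and Xpo1 (1.75). Several of these are also proteins of mitosis. The counts moved with depth. In the shallowest bin, where 15.6% of measured genes were higher, 14 of 42 Myc targets, 15 of 52 assembly factors, 6 of 17 snoRNP genes and 6 of 28 Ran genes were higher. In the middle bin, where 11.2% were, these counts were 0 of 40, 4 of 53, 4 of 16 and 7 of 28, and in the deepest, where 13.6% were, 3 of 41, 8 of 56, 2 of 16 and 7 of 28. Over all Repop D5 barcodes 17 of 26 S phase genes and 35 of 35 genes of G2 and M phase passed the bound upward, among them Mki67 itself, which made the split.

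Across the 553 Repop D5 barcodes the 9 genes other than Myc, summed, were most like Tuba1b (Pearson r = 0.64) and Ptma (0.64), then Hsp90aa1 (0.63), Ranbp1 (0.61), Hsp90ab1 (0.58), Ppia (0.56), Eif4a1 (0.55), Hnrnpab (0.55), Anp32b (0.53) and Set (0.53). These values are over log2 of counts per 10000 plus 1, among 5738 genes found in at least 25% of barcodes, and the median over those genes was 0.07. All points share 1 library and a dependence on depth, whose own r with the sum was 0.44, and after thinning to 3000 UMIs the 10 values were 0.18 to 0.38. Tyrobp (-0.50) and Itm2b (-0.48) had the lowest values. The 45 pairs among the 10 genes had a median r of 0.20, with Ran and Nop58 at 0.43 the highest and Npm1 and Myc at 0.03 the lowest. Myc against the other 9 was at 0.17, and 0.06 after thinning, in counts so sparse that 32.7% of barcodes held a Myc UMI.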

How the data were processed

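The authors deposited whole-number counts of UMIs per gene and barcode. Per the submitters' processing notes, reads were processed with Cell Ranger 2.1.0 on mm10. The annotation release, the rule for calling cells and the use of strand are not given in the sources used here. A deposited matrix pooling both libraries served as an alternative.

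Barcodes with at least 500 genes and under 10% mitochondrially encoded UMIs were retained, with no doublets removed. UMIs were summed over 609 CD and 553 Repop D5 barcodes, at totals of 6055886 and 11037921, and scaled to CPM. Ratios carry exact conditional binomial 95% intervals. A floor of 3 counts per library is 0.495 CPM for CD and 0.272 CPM for Repop D5. Clusters came from scanpy 1.11.5 (2000 variable genes, 30 components, 15 neighbours, Leiden resolution 1) and were named by markers. Thinning to 3000 UMIs used 20 seeded draws. Ratios and calls were also run on simulated data drawn with counting error only. Those draws hold no spread between barcodes or mice, so they say nothing about it.

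The genes, lists and rules were chosen with earlier results of these data known. In each list the 2 highest and 2 lowest ratios and the 2 most abundant genes could be named. Max, Mnt, Mxd3, Gar1, Rcc1, Rangap1 and Xpo1 are outside that rule and were named for their roles after their values were seen. Likeness named the 10 highest correlations. Promoters are from RefSeq on GRCm38.p6 and gene positions from the mm10 annotation.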

Additional observations from a re-analysis of the deposited data

How the results depend on the processing

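With 1 library per group, mouse-to-mouse spread is unknown and intervals cover counting error only. No paired analysis was possible because each group is 1 library. The 8 genes higher in Repop D5 than in CD ranged from 6, with a fold of 2 or a minimum of 50 CPM, to 10 with trimmed-mean scaling. With trimmed-mean scaling 2439 of 8659 measured genes were higher. For the fold of 2 and the minimum of 50 CPM the share of all genes is not given here. The summed ratio of 2.97 became 3.13 with a stricter barcode filter (at least 1000 genes, under 5% mitochondrially encoded), 3.90 with trimmed-mean scaling, 3.58 with totals that leave out mitochondrially encoded and ribosomal protein genes, 2.71 with equal weight per barcode and 2.84 after 1 thinning. In alternatives added after seeing the data it was 2.69 over 20 draws and 2.67 at 8000 to 16000 UMIs. The stricter filter kept 600 CD and 313 Repop D5 barcodes.

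Between Repop D5 barcodes with and without Mki67, the count of 1 higher gene became 0 with a fold of 2 and in the deepest of 3 depth bins, 2 with equal weight and in the middle bin, and 3 with the stricter filter, with at least 2 Mki67 UMIs and in the shallowest bin. Split by UMIs of 2 of 8 mitotic genes, which left 43 barcodes on the low side, it became 7. In the shallowest, middle and deepest bins 15.6%, 11.2% and 13.6% of measured genes were higher. For the other settings that share is not given here, so the 7 is not set against a background. The summed ratio of 1.23 became 1.28 with the stricter filter, 1.18 with trimmed-mean scaling, 1.27 with at least 2 Mki67 UMIs, 1.15 with the split made after thinning, 1.30 with thinned levels, 1.42 with the 8 mitotic genes, and 1.11 and 1.08 in the middle and deepest bins. The causes were not tested. No summed ratio fell below 1 in any alternative run.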

Other observations

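The list of genes known as Myc targets held CACGTG in the promoter windows of 12 of 39 genes (30.8%), and the ribosome assembly factors in 12 of 52 (23.1%), beside 12.7% of measured genes. The snoRNP genes, among them Nop56, Nop58 and Dkc1, held it in 0 of 15, and the related letters CACGCG in 6 of 15 (40.0%), beside 21.0% of measured genes. Of the Myc network itself 5 of 14 held CACGTG, namely Max, Mlx, Mlxipl, Mnt and Mxd4. Of these, Max (ratio 0.578), Mnt (0.407), Mlxipl (0.512) and Mxd4 (0.648) were lower in Repop D5 than in CD, and Mlx at 0.860 (0.704 to 1.05) was inside the bound. Under trimmed-mean scaling Mnt was at 0.534, Mlxipl at 0.673, Max at 0.760 and Mxd4 at 0.852, so of these 5 only Mnt was still past the bound, and Mlx turned to 1.13. No test was run on these shares.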
